A study of Mus musculus with 10 samples.

Results

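Leukaemia inhibitory factor (LIF) signalling was followed here through 10 genes: the ligand Lif, the receptor chains Lifr and Il6st, the kinases Jak1 and Jak2, the transcription factor Stat3, and the target genes Socs2, Socs3, Pim1 and Pim3. They were taken by name from the array's gene annotation and were 10 of 18193 measured genes. The rule itself used no measured value, but the list was chosen with earlier results of these data known. The share of calls among them is therefore not that of genes picked blind. Together they had 32 of the 45037 probe sets that are no controls, so each gene was read by 2 to 6 probe sets. The brightest probe set, ranked on its average across all arrays, stands for the gene, and the others are given beside it.

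The arrays held RNA of 3 groups of mouse cells. Brain NSC (4 arrays) were neural stem cells grown out of adult brain. The arrays labelled iPS (3 arrays) were described as induced pluripotent stem cells, which are adult cells returned to an embryonic stem cell-like state. By that description the cells were made from such NSC with a pMX retrovirus carrying mouse Oct4 alone. They were selected as colonies positive for the Oct4-GFP reporter. Their stated culture was on irradiated mouse embryonic fibroblasts with 1000 U/ml LIF. The arrays labelled iPS-derived NSC (3 arrays) were described as neural stem cells differentiated from Oct4 iPS cells. Every group traced back to OG2 mice, which carry an Oct4-eGFP transgene, with Rosa26 neo/lacZ, mated to ICR females. How many clones or animals stand behind a group, and the media of both NSC cultures, were not stated in the sources used here.

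LIF binds the receptor chain encoded by Lifr, which pairs with the shared chain gp130, encoded by Il6st. Jak kinases bound to these chains phosphorylate Stat3, which moves to the nucleus and switches on genes such as Socs3, whose protein blocks the same receptor and closes a feedback loop. In mouse embryonic stem cells this pathway sustains self-renewal, and in neural stem cells gp130 cytokines support maintenance and favour astrocyte fate.

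The marker genes went against the names of both derived groups, and this bears on every direction given here. Fabp7, a fatty acid binding protein of neural stem cells, stood at 14.45 ± 0.10 (SD, n = 4) on the log2 scale in brain NSC and at 14.17 ± 0.02 (n = 3) on the arrays labelled iPS, but at 4.43 ± 0.21 (n = 3) in those labelled iPS-derived NSC. Dppa5a, a gene of undifferentiated embryonic stem cells, stood at 5.84 ± 0.14, 5.56 ± 0.11 and 14.50 ± 0.03 in the same order. Olig2, a factor of neural progenitors, stood at 12.47 ± 0.32, 12.78 ± 0.05 and 6.53 ± 0.38, and Utf1, a chromatin factor of pluripotent cells, at 6.33 ± 0.05, 6.47 ± 0.17 and 12.22 ± 0.22. Pou5f1, the Oct4 gene that the retrovirus carried, read 4.49 to 4.78 on the arrays labelled iPS, 4.50 to 4.62 in brain NSC and 13.00 to 13.45 in those labelled iPS-derived NSC. Of 10 pluripotency markers, 10 were called higher in the last group than on the arrays labelled iPS, beside 10.8% of all genes. Of 8 neural stem cell markers, 7 were called lower there, beside 14.4% of all genes. The labels were kept as deposited. All 3 comparisons use arrays whose label the markers contradict, so no comparison could be repeated without them. Arrays of one group correlated at r of 0.990 to 0.998 over all probe sets. Brain NSC replicate 4 stood nearer to the arrays labelled iPS than the other brain arrays did, with r of 0.990 against 0.982 to 0.986. The 3-prime to 5-prime difference of the Actb control probe sets ran from 0.15 to 0.43 in brain NSC, from 0.50 to 0.67 on the arrays labelled iPS and from 0.42 to 0.57 in those labelled iPS-derived NSC.

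The 10 genes did not all move in 1 direction. Socs3, Socs2, Pim1 and Pim3 were higher on arrays labelled iPS-derived NSC than in both other groups, Jak1 and Jak2 were lower there, and Lif, Lifr and Il6st were not called in any of the 3 comparisons by this rule on their brightest probe sets. Stat3 was called lower there, against brain NSC but not against the arrays labelled iPS. Called here means an adjusted p under 0.05 in limma together with a difference of 2-fold or more. Between the arrays labelled iPS and brain NSC, limma called 0 of the 10 genes. Of the 10, 6 had an unadjusted p under 0.05 and 5 also an adjusted p under 0.05. Those 5 missed the call only on the 2-fold limit. The share of all genes that pass on p alone is not given here. In the same comparison 0.951% of all genes were called higher, 0.89% lower and 1.84% either. On the arrays labelled iPS-derived NSC against those labelled iPS, 4 of 10 were called higher and 2 lower, where 10.8% of all genes were higher, 14.4% lower and 25.3% either. Against brain NSC the counts were 4 higher and 3 lower, where 11.3% and 14% of all genes were called and 25.4% in either direction. The median differences of the 10 genes were -0.09, 0.03 and -0.04 in these 3 comparisons, beside 0.01, 0.12 and 0.13 over all genes. The comparisons share arrays, so their results are not independent of each other. In these bulk samples, fewer cells of a type and less RNA per cell cannot be told apart.

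**Figure D1:**
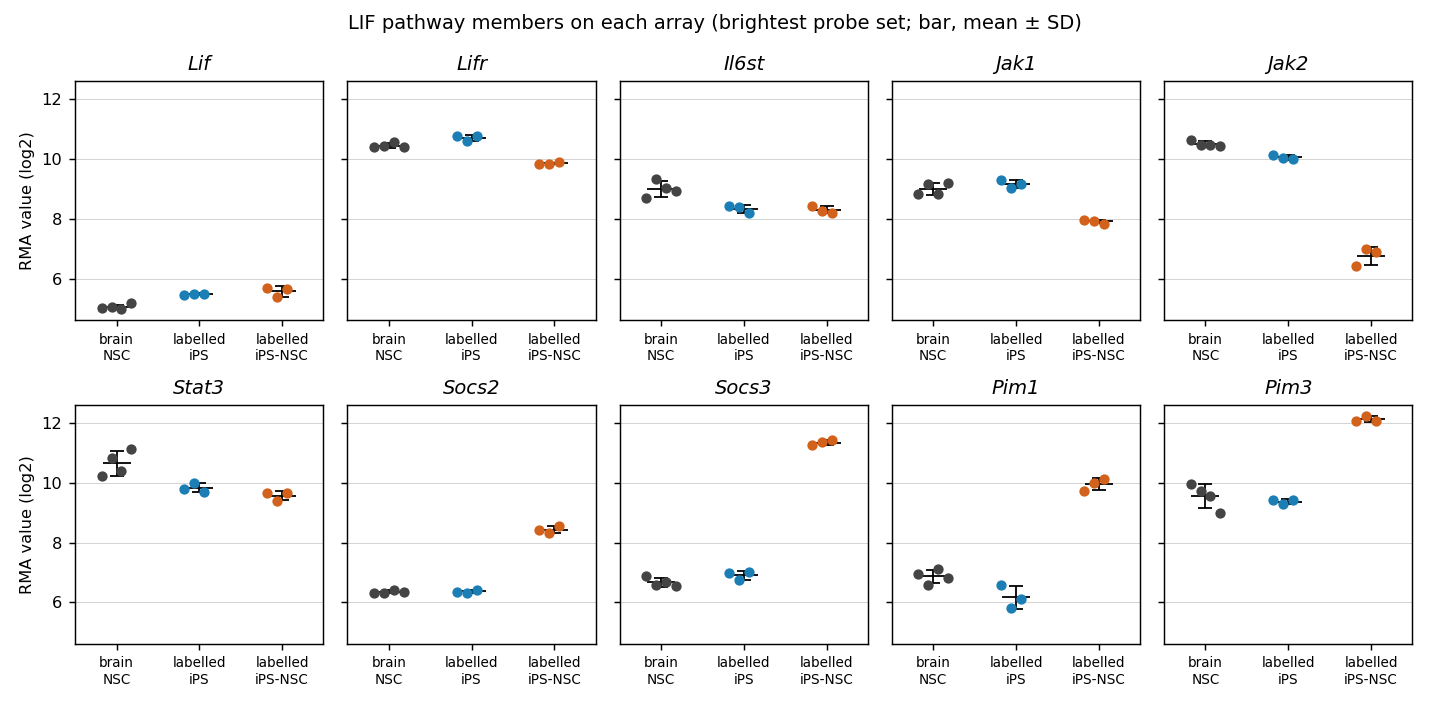
RMA values on the log2 scale for the brightest probe set of each of the 10 genes, 1 point per array, with the mean and SD of each group (4 brain NSC arrays, 3 labelled iPS, 3 labelled iPS-derived NSC, shortened to iPS-NSC on the axis). Socs2, Socs3, Pim1 and Pim3 lie higher and Jak1 and Jak2 lower on every array labelled iPS-derived NSC than on every array of both other groups.

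Among the target genes, Socs3 encodes the feedback inhibitor that binds gp130 and Jak kinases. Its value was 11.25, 11.35 and 11.42 on the 3 arrays labelled iPS-derived NSC, 6.97, 6.73 and 7.0 on those labelled iPS, and 6.88, 6.57, 6.69 and 6.55 on the brain arrays. The first group lay far above both others, which overlapped each other. The difference between arrays labelled iPS-derived NSC and those labelled iPS was 4.44 ± 0.11 (SE; 21.6-fold, adjusted p = 6.61e-13). From brain NSC it was 4.67 ± 0.11 (25.4-fold, adjusted p = 1.75e-13). Between the arrays labelled iPS and brain NSC, Socs3 differed by 0.23 ± 0.11 (adjusted p = 0.154). Its other probe sets gave 3.17 and 4.17 in the first of these comparisons and 3.27 and 4.50 in the second, all called. The brightest probe set has a suffix for possible cross-hybridisation, and 3.17 and 3.27 came from the probe set without one.

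Socs2 encodes a related inhibitor best known for restraining growth hormone signalling. It read 8.43, 8.32 and 8.55 on the arrays labelled iPS-derived NSC, 6.36, 6.31 and 6.43 in those labelled iPS, and 6.32, 6.32, 6.42 and 6.33 in brain NSC. The last 2 groups overlapped almost completely, and the first stood apart from both. Its difference was 2.07 ± 0.09 (4.19-fold, adjusted p = 1.85e-10) from the arrays labelled iPS and 2.08 ± 0.09 (4.24-fold, adjusted p = 7.19e-11) from brain NSC. Of its 6 probe sets 3 were called in both comparisons. The third called one and the other 3 averaged between 3.47 and 5.43 over the 10 arrays, below the median of all probe sets, which was 5.65 to 5.72 on these arrays, and those 3 gave -0.07 to 0.92 and -0.03 to 0.92.

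Pim1 and Pim3 encode related serine/threonine kinases that promote cell survival and growth. Pim1 stood at 9.74, 9.99 and 10.13 on the arrays labelled iPS-derived NSC, at 6.57, 5.80 and 6.13 in those labelled iPS, and at 6.95, 6.60, 7.11 and 6.82 in brain NSC. All 3 groups were separate, with the arrays labelled iPS lowest. It was higher by 3.78 ± 0.18 (13.8-fold, adjusted p = 3.98e-10) on the arrays labelled iPS-derived NSC than in those labelled iPS, and by 3.08 ± 0.17 (8.45-fold, adjusted p = 1.52e-09) than in brain NSC. The arrays labelled iPS differed from brain NSC by -0.70 ± 0.17 (adjusted p = 0.0106), under 2-fold. There the other Pim1 probe set gave the opposite sign (0.27).

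Pim3 read 12.07, 12.24 and 12.05 on the arrays labelled iPS-derived NSC, 9.41, 9.27 and 9.41 in those labelled iPS, and 9.96, 9.72, 9.57 and 8.99 in brain NSC. The first group was again the high one, and brain NSC replicate 4 was the lowest of all arrays. The differences were 2.76 ± 0.18 (6.76-fold, adjusted p = 1.47e-08) and 2.56 ± 0.17 (5.91-fold, adjusted p = 1.4e-08). A second probe set gave 2.17 and 2.86, both called, and the dimmest gave 0.77 and 0.61, neither called. Between the arrays labelled iPS and brain NSC the brightest probe set gave -0.19 ± 0.17 and the second 0.69 ± 0.13, so the direction there depended on the probe set. The brightest and the dimmest Pim3 probe sets have the suffix for possible cross-hybridisation, and the second does not.

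Sequence before the start sites is shown for 3 of the genes that were high together, because Stat dimers and GC-box factors are known to bind short motifs there. RefSeq windows of 250 bases before and 50 after a listed start, in the build GRCm38.p6, were at hand for 9 of the 10 genes (Socs2 had none) and numbered 11. The motif TTCNNNGAA, the core that Stat dimers bind and which reads the same on both strands, was in 1 of the 11 windows, that of Socs3, and in 8.30% of the 32851 windows of all genes. The GC box GGGCGG, searched on both strands, was in 8 of the 11 windows and in 35.7% of all windows. It was not confined to the high genes. The windows of Jak1 and Jak2, which were called lower, had it too, as did those of Il6st and Stat3 and a window of Lifr. The Socs3 stretch covers positions -164 to -135 from that start (chr11:117969501-117969530, minus strand), with the TTCNNNGAA match in capitals, and the annotated gene extends further upstream than this start. The stretches of Pim1 (chr17:29490665-29490784, plus strand) and Pim3 (chr15:88862074-88862193, plus strand) cover positions -120 to -1 and have GC boxes in capitals, on the strand opposite to GGGCGG. A match is a description of the letters and not a measured binding site.
Socs3: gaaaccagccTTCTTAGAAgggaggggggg
Pim1: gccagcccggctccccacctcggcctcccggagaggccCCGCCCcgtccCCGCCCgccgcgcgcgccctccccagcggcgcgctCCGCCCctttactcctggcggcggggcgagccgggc
Pim3: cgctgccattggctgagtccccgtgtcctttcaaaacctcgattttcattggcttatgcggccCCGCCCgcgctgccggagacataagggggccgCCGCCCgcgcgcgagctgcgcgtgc

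The kinase genes Jak1 and Jak2 moved the other way. Jak2, which gp130 and many other cytokine receptors use, stood at 6.42, 6.98 and 6.89 on the arrays labelled iPS-derived NSC, at 10.14, 10.02 and 9.99 in those labelled iPS, and at 10.65, 10.48, 10.48 and 10.42 in brain NSC. The 3 groups did not overlap, and brain NSC was highest. Jak2 was 9.76-fold lower on the arrays labelled iPS-derived NSC than in those labelled iPS (-3.29 ± 0.13, adjusted p = 6.92e-11). It was 13.4-fold lower than in brain NSC (-3.75 ± 0.12, adjusted p = 7.74e-12). Its other probe set gave -2.83 and -3.63, both called. The arrays labelled iPS lay under brain NSC by less than 2-fold, at -0.46 ± 0.12 (adjusted p = 0.0202) and at -0.79 ± 0.13 on the other probe set.

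Jak1, the kinase through which gp130 chiefly signals, differed less. Its values were 7.96, 7.93 and 7.84 on the arrays labelled iPS-derived NSC, 9.31, 9.03 and 9.15 in those labelled iPS, and 8.82, 9.15, 8.84 and 9.19 in brain NSC. The first group was the low one and the other 2 overlapped. Jak1 was lower by 2.38-fold against the arrays labelled iPS (-1.25 ± 0.12, adjusted p = 7.29e-07) and by 2.12-fold against brain NSC (-1.09 ± 0.11, adjusted p = 1.43e-06). All 3 of its probe sets were called lower in both comparisons, at -1.51 to -1.25 and -1.23 to -1.09. The call against brain NSC was lost with quantile normalization of the deposited values, where the difference was -0.89.

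**Figure D2:**
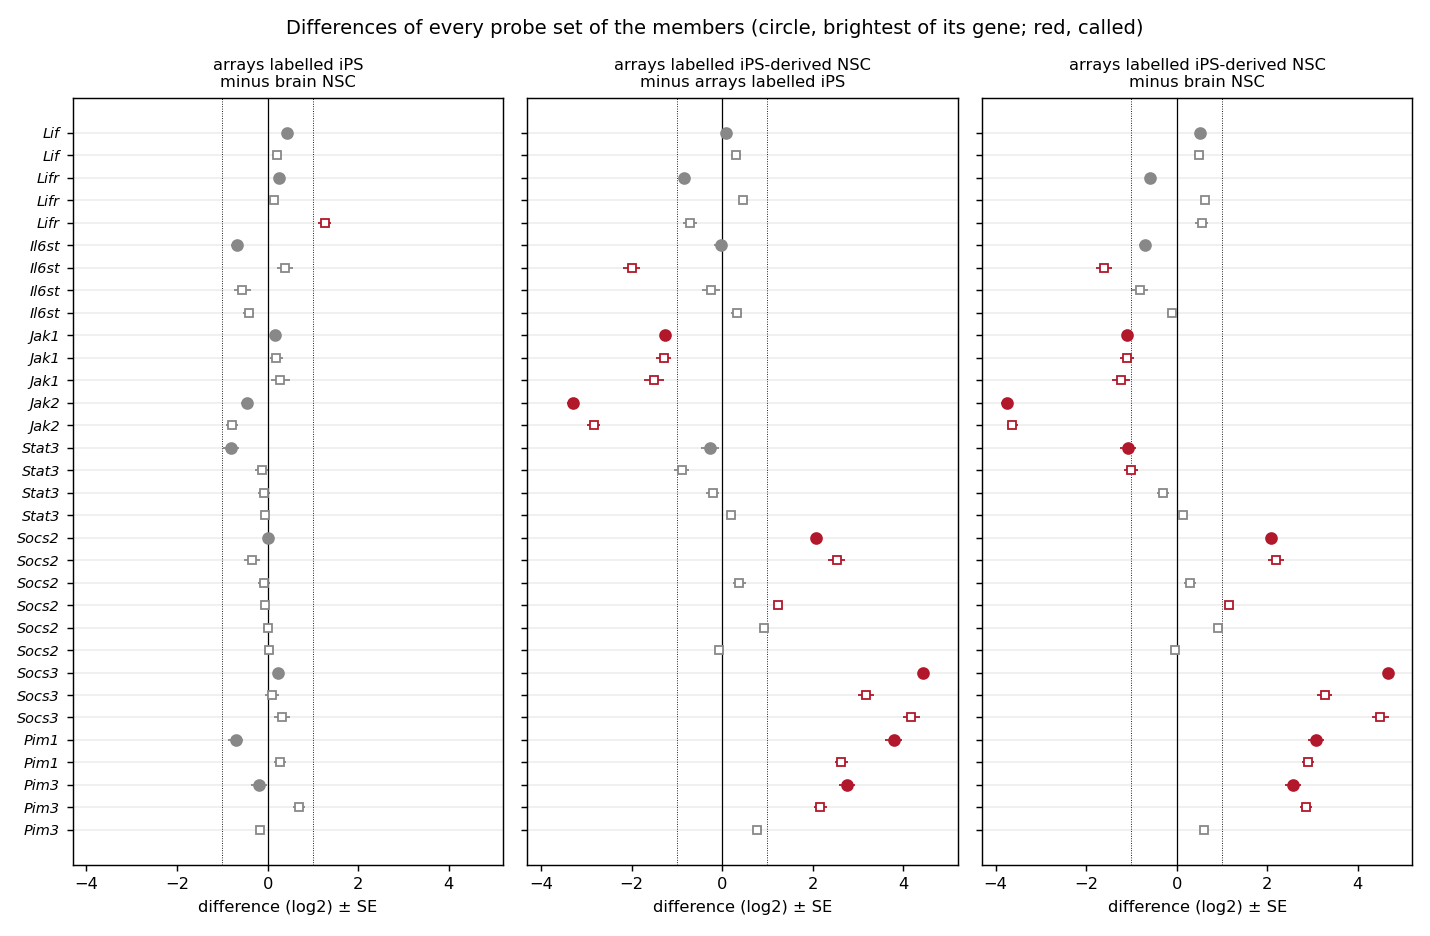
Differences on the log2 scale, with the SE from limma, of all 32 probe sets of the 10 genes in the 3 comparisons, ordered within a gene from the brightest probe set (circle) to the dimmest (squares); red marks called probe sets and dotted lines mark 2-fold. All 3 Socs3 probe sets (3.17 to 4.44) and both Jak2 probe sets (-3.29 and -2.83) are called in the middle panel, while no probe set of Lif, Lifr or Stat3 and 1 of Il6st (-2.0) is called there.

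Lif itself was dim on every array. Its brightest probe set read 5.70, 5.38 and 5.67 on the arrays labelled iPS-derived NSC, 5.46, 5.50 and 5.49 in those labelled iPS, and 5.03, 5.04, 5.00 and 5.17 in brain NSC. Each value lay below the median of all probe sets on its own array, by 0.0056 to 0.69, and brain NSC was lowest. The arrays labelled iPS-derived NSC differed from brain NSC by 0.52 ± 0.10 (adjusted p = 0.000327) and those labelled iPS by 0.42 ± 0.10 (adjusted p = 0.00756), both under 2-fold. The difference between both derived groups was 0.09 ± 0.10, with a 95% interval of -0.13 to 0.32. The other, dimmer Lif probe set gave 0.30 ± 0.12 there (limma adjusted p = 0.0429 over all probe sets), and its 2 groups did not overlap. Against brain NSC it gave 0.50 ± 0.11 (labelled iPS-derived NSC) and 0.20 ± 0.11 (labelled iPS, overlapping). None of these was called. LIF protein added to the medium is not measured by these probe sets.

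Lifr, the chain that recognises LIF, was read differently by its 3 probe sets. The brightest stood at 9.83, 9.85 and 9.88 on the arrays labelled iPS-derived NSC, at 10.76, 10.59 and 10.76 in those labelled iPS, and at 10.41, 10.42, 10.55 and 10.40 in brain NSC. The 3 groups did not overlap, with brain NSC in the middle and the arrays labelled iPS highest. The arrays labelled iPS-derived NSC were lower by 1.8-fold than those labelled iPS (-0.85 ± 0.09, adjusted p = 1.97e-06; 95% interval -1.04 to -0.65) and by 1.51-fold than brain NSC (-0.59 ± 0.08, adjusted p = 3.2e-05), short of the 2-fold limit. Tested against a minimum of 1.5-fold in limma, the first difference was called (adjusted p = 0.0238). The second brightest probe set gave the opposite sign in both, 0.47 ± 0.09 and 0.62 ± 0.09. The mean of the 3 probe sets gave 0.19 against brain NSC.

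The dimmest Lifr probe set gave the 1 call among the 32 probe sets between the arrays labelled iPS and brain NSC, where 2.14% of all probe sets were called. It read 7.23, 7.26 and 7.23 on the arrays labelled iPS, 6.45, 6.28 and 6.86 on those labelled iPS-derived NSC, and 5.76, 6.12, 5.79 and 6.24 in brain NSC. The arrays labelled iPS were the high ones and lay very close together. Their difference from brain NSC was 1.26 ± 0.15 (adjusted p = 8.51e-05 over all probe sets). The Lifr transcripts that each probe set reads were not analysed here.

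Il6st, which encodes the gp130 chain shared by LIF and other cytokines of the interleukin-6 family, also depended on the probe set. The brightest read 8.43, 8.26 and 8.21 on the arrays labelled iPS-derived NSC, 8.41, 8.39 and 8.18 in those labelled iPS, and 8.69, 9.32, 9.04 and 8.94 in brain NSC. Both derived groups overlapped and lay below brain NSC, at -0.70 ± 0.13 (labelled iPS-derived NSC, adjusted p = 0.000388) and -0.67 ± 0.13 (labelled iPS, adjusted p = 0.0033), under 2-fold. Between both derived groups the difference was -0.03 ± 0.14, with a 95% interval of -0.33 to 0.28.

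The second brightest Il6st probe set gave another picture, with 7.03, 7.16 and 6.80 on the arrays labelled iPS-derived NSC, 9.06, 9.03 and 8.89 in those labelled iPS, and 8.56, 9.14, 8.55 and 8.18 in brain NSC. Here the first group alone was low. The differences were -2.0 ± 0.19 (adjusted p = 6.22e-07 over all probe sets) from the arrays labelled iPS and -1.61 ± 0.17 (adjusted p = 2.52e-06) from brain NSC, both called. The 2 dimmer probe sets of Il6st gave -0.25 and 0.32 between both derived groups, and neither was called.

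Stat3 was measured by 4 probe sets. The brightest read 9.65, 9.40 and 9.65 on the arrays labelled iPS-derived NSC, 9.79, 10.00 and 9.70 in those labelled iPS, and 10.23, 10.81, 10.39 and 11.13 in brain NSC. Brain NSC lay above both derived groups and was the most spread, and the derived groups were separated by a narrow gap. The arrays labelled iPS-derived NSC were 2.11-fold lower than brain NSC (-1.08 ± 0.18, adjusted p = 0.00013). This call sat near the 2-fold limit and was lost without brain NSC replicate 4 (-0.91), without replicate 2 among those labelled iPS-derived NSC (-0.99), and with the mean of the 4 probe sets (-0.56). The second probe set was called too (-1.02 ± 0.15), and the 2 dimmest gave -0.29 and 0.14, not called.

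The other Stat3 comparisons did not pass. Between both derived groups the difference was -0.27 ± 0.19 (adjusted p = 0.243; 95% interval -0.68 to 0.15) on the brightest and -0.90 ± 0.16 (adjusted p = 0.000373 over all probe sets) on the second probe set. From the arrays labelled iPS to brain NSC, Stat3 differed by -0.81 ± 0.18 (adjusted p = 0.00671) on the brightest probe set but by -0.12 ± 0.15 on the second. These are levels of Stat3 RNA, and the phosphorylated protein was not measured.

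**Figure D3:**
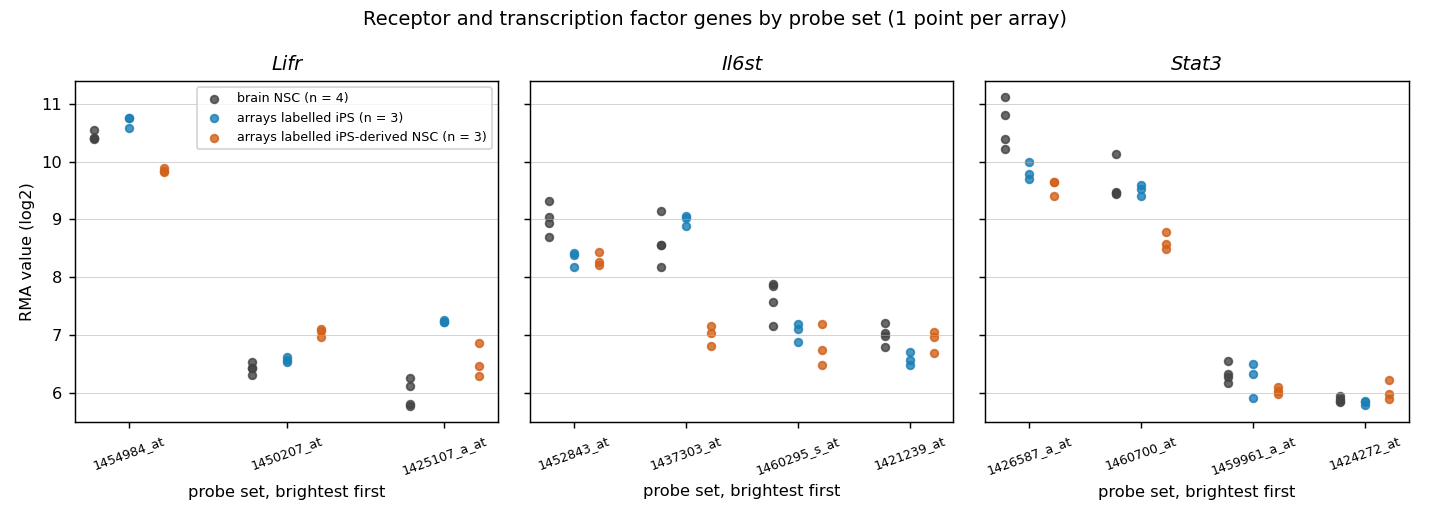
RMA values on the log2 scale of every probe set of Lifr, Il6st and Stat3, 1 point per array, with the 3 groups in separate colours. The group order changes between probe sets of 1 gene: the arrays labelled iPS-derived NSC are lowest on the brightest Lifr probe set (9.83 to 9.88) and highest on the next (6.96 to 7.09).

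Across the 32 probe sets, 10 were called higher and 6 lower on the arrays labelled iPS-derived NSC than in those labelled iPS, where 20.5% of all probe sets were called. Against brain NSC, 10 were higher and 8 lower, with 20.6% called overall. The higher ones were the 3 of Socs3, 3 of Socs2, both of Pim1 and 2 of Pim3 in either comparison. The lower ones were the 3 of Jak1, both of Jak2 and 1 of Il6st, joined against brain NSC by 2 of Stat3.

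By group separation, the arrays labelled iPS-derived NSC lay entirely above those labelled iPS for 4 of the 10 genes and entirely below for 4, beside 40.1% and 29.4% of all genes. Against brain NSC they were above for 5 and below for 5, beside 35.9% and 25.4%. The arrays labelled iPS lay above brain NSC for 2 and below for 4 genes, beside 14.5% and 13.8%. Separation of the groups was thus frequent over the whole array.

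The rest of the pathway was read from 7 further lists with 68 genes, of which 61 were measured under their own symbol. Between the arrays labelled iPS and brain NSC limma called 2 of the 61, beside 1.84% of all genes, while 25 had an unadjusted p under 0.05. No share of all genes stands beside that last count. On the arrays labelled iPS-derived NSC, 10.8% of all genes were higher and 14.4% lower than in those labelled iPS. Against brain NSC these shares were 11.3% and 14%. They stand beside the counts of every list below, markers included. The other ligands of the gp130 family had 1 of 6 called higher on the arrays labelled iPS-derived NSC, in both comparisons: Ctf1, which encodes cardiotrophin-1, at 1.11 ± 0.12 (adjusted p = 1.72e-06) and 1.18 ± 0.11 (adjusted p = 4.21e-07). Of the 5 other gp130-family receptors limma called 0 in all 3 comparisons, with 2 at an unadjusted p under 0.05 in both that involve the arrays labelled iPS-derived NSC and 1 in the third. Osmr, Il6ra, Cntfr, Il27ra and Lepr made up that list.

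Among 7 other Jak and Stat genes, 3 were higher on the arrays labelled iPS-derived NSC and 0 lower. They were Stat4, Stat5a and Stat6, which carry signals of other cytokines, at 1.55 ± 0.15, 1.15 ± 0.11 and 1.09 ± 0.15 against the arrays labelled iPS, and at 1.53 ± 0.14, 1.09 ± 0.11 and 1.26 ± 0.14 against brain NSC. The largest of their adjusted p values was 2.68e-05. All probe sets of the 3 genes were called. Stat5b was not called on its brightest probe set, but the other was called lower in both comparisons, at -2.19 and -2.28, and it was named after its values were seen. Stat4 averaged 4.16 (labelled iPS) and 4.18 (brain NSC), under the lower quartile of all probe sets, so its differences are not exact folds.

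Other inhibitors of the pathway went both ways. Against the arrays labelled iPS 3 of 13 were higher and 4 lower, beside 10.8% and 14.4% of all genes. Against brain NSC 1 was higher and 4 lower, beside 11.3% and 14%. Socs4, a relative of Socs3, was lower, at -2.65 ± 0.15 (adjusted p = 1.77e-09) and -3.07 ± 0.14 (adjusted p = 1.6e-10), but only 1 of its 4 probe sets was called. Pias2, one of a family that restrains Stat factors, was higher by 2.25 ± 0.09 and 1.93 ± 0.08, while its lowest probe set gave -0.83 and -1.32. The last value was called, so against brain NSC 1 of its 3 probe sets was called higher and 1 lower. Pias3, which binds Stat3, was lower, at -1.25 ± 0.14 and -1.20 ± 0.13, with 1 of 2 probe sets called. Socs5 was lower, at -1.03 ± 0.11 and -1.40 ± 0.10, on both of its probe sets.

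The branch from gp130 to MAPK and PI3K signalling had 2 of 10 genes higher and 5 lower on the arrays labelled iPS-derived NSC than in those labelled iPS, and 2 higher and 4 lower than in brain NSC. Pik3r1, the regulatory subunit of PI3K, was lower, at -3.08 ± 0.11 (adjusted p = 1.36e-11) and -3.71 ± 0.10 (adjusted p = 8.23e-13). Akt1, a kinase downstream of it, was lower, at -2.65 ± 0.22 and -2.0 ± 0.21, though 2 of its 4 probe sets were not called. Dusp6, a phosphatase that MAPK signalling induces, was lower, at -2.04 ± 0.10 and -1.77 ± 0.09. Gab1, an adaptor of receptor signalling, was higher by 1.84 ± 0.10 and 2.41 ± 0.10 on the brightest of 3 called probe sets. Sos1, an activator of Ras, was lower, at -1.16 ± 0.14 and -2.04 ± 0.13, with 1 of 5 probe sets called. Spry4, a feedback inhibitor of receptor tyrosine kinases, was the 1 called gene of this branch between the arrays labelled iPS and brain NSC, at 1.11 ± 0.15 (adjusted p = 0.000265), on 1 of its 4 probe sets.

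Genes known as Stat3 targets in embryonic stem cells were mostly high where Socs3 was high. Of 12, 9 were higher and 1 lower on arrays labelled iPS-derived NSC, against the arrays labelled iPS and against brain NSC alike. The median difference of the list was 2.95 and 3.35, beside 0.12 and 0.13 over all genes. Many of these genes are also defining genes of pluripotent cells, so the list is not specific to Stat3. Sall4, a zinc finger factor of pluripotent cells, was higher by 7.67 ± 0.10 (adjusted p = 1.69e-15) and 7.72 ± 0.09 (adjusted p = 7.48e-16). Tfcp2l1, a Stat3 target that can sustain self-renewal, was higher by 5.66 ± 0.12 and 5.30 ± 0.11, on 1 of its 3 probe sets. Its mean of 3.98 on the arrays labelled iPS lay under the lower quartile of all probe sets, so the first of these is not an exact fold. Klf4 was higher by 5.12 ± 0.14 and 4.85 ± 0.13, and Klf5 by 4.71 ± 0.20 and 5.22 ± 0.19, the latter on 2 of its 3 probe sets. The 1 lower gene was Ier3, an early response gene, at -1.61 ± 0.11 and -1.34 ± 0.11, and the 2 not called were Myc (-0.44 and 0.03) and Junb (0.71 and 0.85). These 3 were chosen after their values were seen.

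Genes linked to Stat3 in neural and glial cells were lower or not called on the arrays labelled iPS-derived NSC. Of 8, 4 were lower than on the arrays labelled iPS and 5 lower than in brain NSC, and 0 higher. Some of these genes also mark neural stem cells or astrocytes, so this list is not specific to Stat3 either. Vim, an intermediate filament of neural stem cells, was lower, at -2.65 ± 0.12 and -2.86 ± 0.11, the cyclin Ccnd1 at -2.44 ± 0.10 and -2.43 ± 0.09, and the growth factor receptor Fgfr3 at -1.98 ± 0.14 and -1.57 ± 0.13. Hes5, a Notch effector, was lower than brain NSC in both derived groups, at -3.58 ± 0.19 on the arrays labelled iPS and -4.09 ± 0.19 in those labelled iPS-derived NSC. Gfap, the astrocyte filament gene that Stat3 activates during gliogenesis and a gene chosen after its values were seen, was not called. It stood at 5.46 to 5.74 on the arrays labelled iPS, 5.48 to 6.00 in brain NSC and 5.77 to 6.19 in those labelled iPS-derived NSC, near the median of all probe sets.

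**Figure D4:**
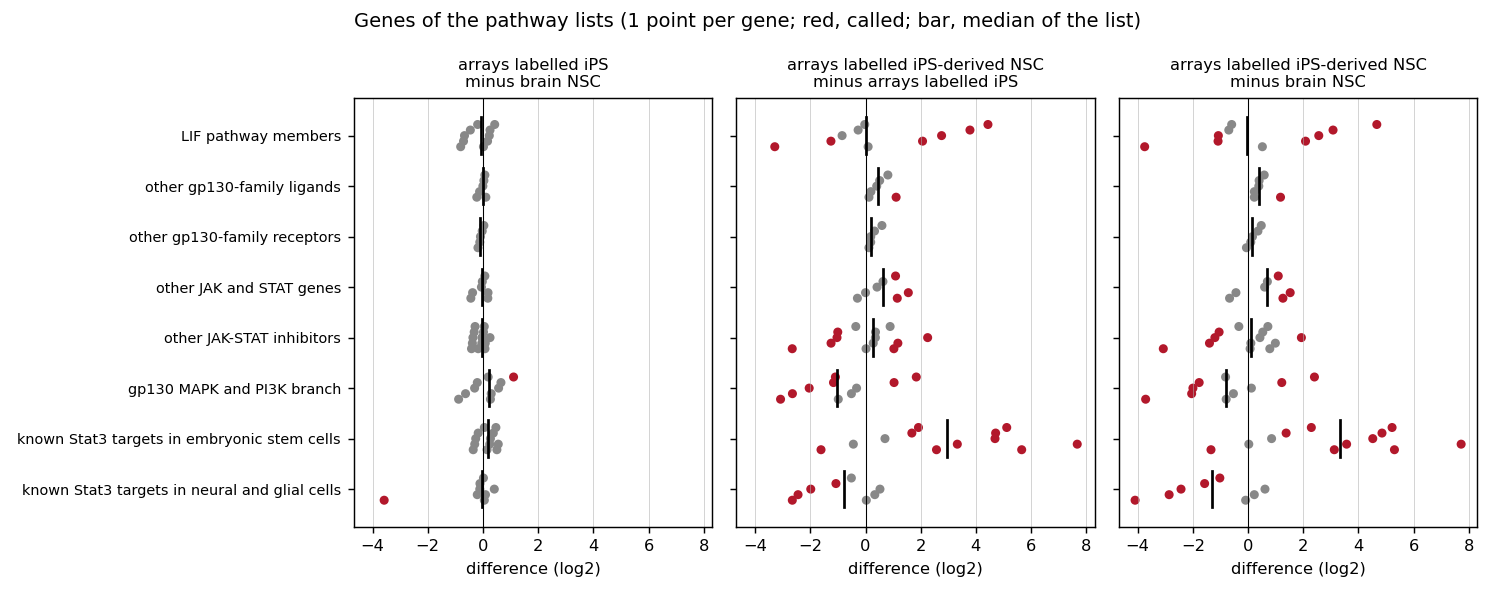
Differences on the log2 scale in the 3 comparisons for the 10 genes and the 7 further lists, 1 point per gene by its brightest probe set, red where called, with a black bar at each list's median. The known targets in embryonic stem cells have medians of 2.95 and 3.35 in the 2 panels with the arrays labelled iPS-derived NSC, and the other lists lie nearer to 0.

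Several fibroblast markers, but not all, were raised in the same arrays as Socs3, Socs2, Pim1 and Pim3. These are not the arrays for which culture on fibroblasts with LIF was stated, which were those labelled iPS. Of 11 fibroblast markers measured, 5 were higher and 0 lower on the arrays labelled iPS-derived NSC than in those labelled iPS. Over all genes 10.8% were higher and 14.4% lower. Against brain NSC 6 were higher and 0 lower, beside 11.3% and 14% of all genes. S100a4 and Twist2, named after their values were seen, were not called. S100a4 stood at 6.24 ± 0.69 there, against 6.79 ± 0.21 (labelled iPS) and 6.95 ± 0.22 (brain NSC). Twist2 stood at 4.30 ± 0.31, against 4.31 ± 0.09 and 4.09 ± 0.17. The mean level of the list was 6.79, 6.38 and 5.79 on replicates 1, 2 and 3 labelled iPS-derived NSC, 5.18 to 5.26 in those labelled iPS and 5.16 to 5.20 in brain NSC. Col1a2, a fibrillar collagen gene, read 9.75, 8.56 and 8.02 on these 3 replicates, beside 5.95 ± 0.17 (labelled iPS) and 5.81 ± 0.05 (brain NSC). Acta2, a smooth muscle actin, read 9.88, 9.44 and 8.80, beside 7.69 ± 0.10 and 7.77 ± 0.23. On the same arrays the brightest Socs3 probe set read 11.25, 11.35 and 11.42, and the one without the cross-hybridisation suffix 9.57, 8.85 and 9.51. The order of the 3 replicates thus differed between probe sets of 1 gene. It differed for Pim1 too, with 9.74, 9.99 and 10.13 on the brightest and 8.67, 8.05 and 8.42 on the other probe set.

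**Figure D5:**
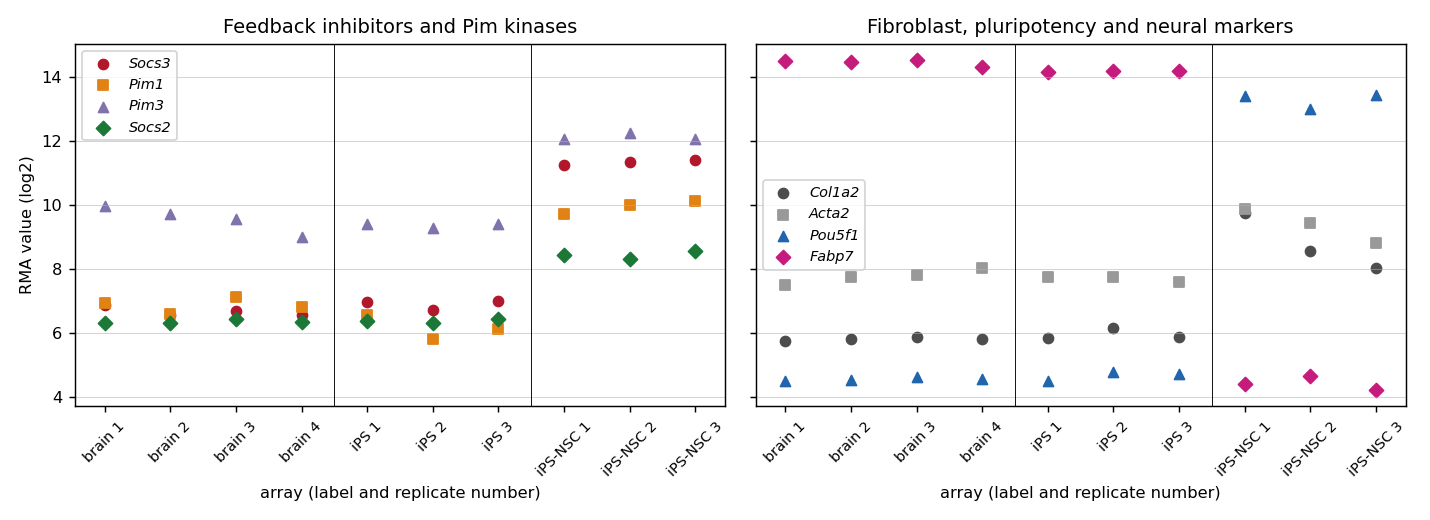
RMA values on the log2 scale on each of the 10 arrays, named by label and replicate number (iPS-NSC stands for the arrays labelled iPS-derived NSC), for Socs3, Pim1, Pim3 and Socs2 (left) and for the fibroblast genes Col1a2 and Acta2, Pou5f1 (which encodes Oct4) and Fabp7 (right). Col1a2 runs from 8.02 to 9.75 within the arrays labelled iPS-derived NSC, where Socs3 runs from 11.25 to 11.42.

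Markers of other cell types did not move together. Of 7 neuron markers 2 were higher on the arrays labelled iPS-derived NSC and 0 lower in either comparison, with Stmn2 at 10.05 ± 0.12 there, at 5.29 ± 0.12 in those labelled iPS and at 5.15 ± 0.16 in brain NSC. Rbfox3, a nuclear protein of mature neurons, was not called, at 7.54 ± 0.13, 6.88 ± 0.09 and 6.87 ± 0.11. Of 7 astrocyte markers 3 were lower, Aldoc among them at 7.35 ± 0.29 against 13.55 ± 0.05 and 13.20 ± 0.22. Gja1, a gap junction gene and the brightest of that list, was not called, at 12.49 ± 0.10 against 11.58 ± 0.07 and 12.40 ± 0.29. By limma, 0 of 5 oligodendrocyte and 0 of 7 microglia markers were called in any comparison, with up to 4 and 3 at an unadjusted p under 0.05. The oligodendrocyte genes Cnp and Sox10 stood at 9.93 ± 0.13 and 7.01 ± 0.22 on the arrays labelled iPS-derived NSC, at 10.66 ± 0.07 and 6.5 ± 0.08 on those labelled iPS, and at 10.80 ± 0.13 and 6.44 ± 0.29 in brain NSC. The microglial receptor genes Csf1r and Cx3cr1 stood at 7.28 ± 0.08 and 4.82 ± 0.17 at most. The part of these cell types in the differences of the 10 genes was not tested.

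The genes whose profile over the 10 arrays was closest to that of Socs3, after each was centred on its own mean, were Slc7a7, Cox6b2 and H2-Q10, with root mean square differences of 0.15, 0.15 and 0.16 on the log2 scale. They encode an amino acid transporter subunit, a cytochrome c oxidase subunit and a class I histocompatibility molecule. For Lifr they were Ublcp1, Hdhd3 and Rab13, at 0.05, 0.07 and 0.08. For Stat3 they were Pde1b, Smg6 and Dock3, at 0.17, 0.17 and 0.18. These are the nearest of 18193 profiles, and the 10 arrays fall into 3 groups, so likeness here mostly means like group levels.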

How the data were processed

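Total RNA of 10 samples, 1 microgram each, was labelled in 1 round and hybridised to Affymetrix arrays, per the labels' protocols. The authors deposited log2 values of every probe set. Per the submitters' notes these came from RMA in Bioconductor (version: not given in the sources used). RMA removes shifts shared by most genes and compresses differences of dim ones. Scanner files were not used. Groups followed the sample titles.

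Of 45101 probe sets, 64 controls were left out, and 34945 with 1 symbol gave 18193 genes. Differences were fitted with limma 3.58.1 (R 4.3.3; lmFit, eBayes) over the 3 groups and 10 arrays, with 7 residual and 5.95 prior degrees of freedom. P values are two-sided, with Benjamini-Hochberg adjustment over all genes, or over the 45037 probe sets where stated. The script was tested on simulated data. Array number limits the precision. P values measure the spread between these samples, which may be technical, as the labels do not give separate cultures or animals.

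Named genes were the 10 members, the 3 called genes of largest difference per pathway list, the 2 brightest genes of a marker list, Pou5f1 as the gene introduced, and the 3 closest profiles. Of 7 marker lists, 55 of 58 entries were measured. Members and lists were chosen with earlier results of these data known. Same-numbered replicates did not deviate together (r of -0.21 to 0.13). Alternatives varied the probe set, dim genes, normalization, variance model, samples fitted, replicate block, fold threshold and each array. Figures used matplotlib 3.10.9.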

Additional observations from a re-analysis of the deposited data

Results flagged for a closer look

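Among the 4 brain NSC arrays, 3 of the 32 probe sets had an array set apart from the other 3 by a gap that was large for the group's range. Chance alone flags about 1 in 20 such groups. The second Stat3 probe set read 10.13 on brain NSC replicate 4 and 9.45 to 9.48 on the others, and the brightest Stat3 probe set was also highest there. The brightest Lifr probe set read 10.55 on replicate 3 against 10.40 to 10.42, and that of Socs2 read 6.42 on replicate 3 against 6.32 to 6.33.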

How the results depend on the processing

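The number of the 10 genes called was 0 under every alternative between the arrays labelled iPS and brain NSC, 6 to 7 between both derived groups (6 without any single array) and 6 to 7 for the arrays labelled iPS-derived NSC against brain NSC (6 to 7 without single arrays). The calls on their other probe sets were 1, 9 to 11 and 9 to 12. Of 467 recomputed differences of single genes, 452 kept direction and call, 5 lost a call and 1 gained one (Lifr between both derived groups, -0.85, against a minimum of 1.5-fold). Those that turned were not called in either form: Socs2 between the arrays labelled iPS and brain NSC (-0.073 with the mean of its probe sets, -0.013 to 0.044 without single arrays), Pim3 there (0.11 with the mean, 0.69 without probe sets that can cross-hybridise), Il6st between both derived groups (0.21 with quantile normalization, -0.10 to 0.019 without single arrays) and Lifr against brain NSC (0.19 with the mean). Over all genes, the 335 calls between the arrays labelled iPS and brain NSC became 223 with the mean of the probe sets, 183 against a minimum of 1.5-fold, 537 with the replicate block and 296 to 537 without single arrays, the highest without brain NSC replicate 4. The block also took Stat3 against brain NSC to -0.91, not called, the value it had without brain NSC replicate 4, the only array with that number. Same-numbered samples are not known to be paired. The cause of these changes was not tested. Dim probe sets limit Lif and the weaker Socs2 probe sets.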
